A study of Sus scrofa with 6 samples.

Results

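The genes described here encode the proteins of the cytosolic ribosome, along with a few relatives of similar name. They were taken as every non-control probe whose reference transcript belongs to a pig gene named RPL or RPS followed by a digit, or RPLP0, RPLP1, RPLP2 or RPSA, leaving out the S6 kinases (RPS6K). The rule found 32 genes among the 2389 that probes of the array could be matched to by name, out of 84 gene symbols of that kind in the pig gene table used for names. They were read by 176 of the array's 43603 probes. The other 52 symbols were not analysed here. Of the 176 probes, 7 had no value because their spot was an outlier on at least 1 array, and 169 were tested among 22720 probes in all. These 169 still covered all 32 genes. By gene name, 18 were counted to the large subunit (105 probes tested) and 14 to the small subunit (64 probes tested). The 18 include the relatives RPL7L1, RPL26L1 and RPL36AL, described below. All probes of a gene are annotated to 1 reference transcript, so they were taken to share a target and are not replicates of a treatment.

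RNA of punctured pig femoral arteries, sampled ex vivo where the vessel had been repaired by minimally invasive means, was measured on 6 Agilent 1-colour arrays. The study compares 3 arteries repaired with the vascular glue TAG and 3 repaired with Exoseal, a marketed vascular closure device. The labels give all 6 samples the left puncture side and name no unpunctured control, breed, sex, age or time of sampling. Exoseal replicate 1 is called Exoseal in its title and source name and TAG in its treatment field, and was grouped by its title. Whether the samples are of different pigs is not in the labels, so the p-values here reflect the spread among these 6 samples alone, and that spread may be technical. In pieces of whole artery wall, fewer cells of a type and less RNA per cell cannot be told apart.

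The ribosome joins a small subunit, which reads the mRNA, and a large subunit, which forms the peptide bond. Each is a core of ribosomal RNA covered by small, mostly basic proteins that are made in about equal amounts and are needed in nearly every cell. Their mRNAs are abundant and carry a pyrimidine tract at the 5′ end, through which mTORC1 controls their translation. Smooth muscle cells and fibroblasts of an injured artery are known to raise protein synthesis when they divide and lay down matrix. Many of these genes have processed copies elsewhere in mammalian genomes, so a probe may also detect a near-identical copy, and which ones do is not known from the files.

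Levels are given as log2 of the scanner's processed signal over the 75th percentile of its own array, so that 0 is the level of that percentile. The ribosomal protein probes were among the brightest on every array. Their median level was 5.23, 5.40 and 5.19 on the 3 TAG arrays and 4.41, 4.85 and 4.62 on the 3 Exoseal arrays, which do not overlap on this scale. That median lay between the 93.9th and the 95.7th percentile of all tested probes on each array. The gap between the groups depended on the scaling. With arrays scaled on their own median they overlapped, at 7.19, 7.44 and 7.04 in TAG and 6.12, 7.77 and 7.22 in Exoseal. Without scaling every TAG median was below every Exoseal median, while under quantile scaling, described below, every TAG median was above. Of the 169 probes, 168 were well above background on all 6 arrays, against 56.7% of all tested probes, and no spot was saturated. Levels of single probes ran from -2.77 to 8.88, and since brightness also depends on the probe, no probe's level was set against another's.

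The arrays themselves were unequal. Between 34.7% and 41.2% of all probes were well above background on the TAG arrays and between 60.6% and 70.8% on the Exoseal arrays. The 75th percentile used for scaling was 36.4, 25.7 and 19.3 units of processed signal on the TAG arrays and 68.4, 151 and 61.0 on the Exoseal arrays. Per the file headers, the 3 TAG arrays and Exoseal replicate 1 shared 1 scan (slide 1 here), and Exoseal replicates 2 and 3 shared another (slide 2), which held no TAG array. What these differences contribute to the results below was not tested beyond the other scalings and the fits by slide. Both fits by slide compare TAG with Exoseal replicate 1 alone, since slide 2 held no TAG array.

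Most ribosomal protein probes were brighter in TAG than in Exoseal, but few passed the test, and the share that did was near that of all probes of any brightness. The difference, TAG mean minus Exoseal mean on the log2 scale, was above 0 for 137 of 169 probes, against 52.6% of all tested probes. Its median was 0.79 over the ribosomal protein probes and 0.08 over all tested probes. With limma and Benjamini-Hochberg adjustment over all 22720 probes at a threshold of 0.05, 13 of the 169 rose in TAG (7.69%), against 7.06% of all probes. Another 2 fell (1.18%), against 3.69% of all probes. The 3 TAG arrays all lay above the 3 Exoseal arrays for 94 probes (55.6%), against 20.2% of all tested probes. They all lay below them for 8 probes (4.73%), against 16.2%. The standard error of a probe's difference had a median of 0.44, so a difference of the median size was less than 2 standard errors. An adjusted p under 0.1 was reached by 47 probes, 44 of them higher in TAG, against 21.6% of all probes. These comparisons do not match probes on brightness. Of the 4544 tested probes with a mean level of 2.14 or more, 147 were ribosomal protein probes. Their median difference was 0.73, against 0.08 for all 4544, and 9 rose, against 7.90%. Among the brightest 2% (455 probes) the medians stood the other way. There the 42 ribosomal protein probes had a median of 0.63, against 1.06 for all 455, and 2 rose, against 21.3%.

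The 15 calls depended on which arrays were in the fit. Without any 1 of the TAG arrays, or without Exoseal replicate 2 or 3, limma called 0 ribosomal protein probes and 0 of all probes, while 39 to 71 ribosomal protein probes had an unadjusted p under 0.05. Without Exoseal replicate 1 it called 56, of which 49 were higher and 7 lower in TAG, and all 15 were among them. That was 29.0% and 4.14% of the ribosomal protein probes, against 21.1% and 12.8% of all probes (34% in either direction). In these fits the median difference lay between 0.72 and 0.82. With slide as a block 13 probes were called, all higher in TAG, against 5% of all probes higher and 3.99% lower (8.99% in either direction). Each difference in that fit is TAG against Exoseal replicate 1, the same as within slide 1. The fits by slide are therefore not separate checks. Within slide 1 alone, where the lone Exoseal array is assumed to vary like the TAG arrays, 21 were called, all higher, against 7.06% of all probes higher and 5.6% lower. Each of these sets shared 4 probes with the 15, namely RPL5 probe A_72_P724008 and RPSA probes A_72_P525469, A_72_P004351 and A_72_P635916. When a probe had to be well above background on all 6 arrays to be tested, 36 rose and 2 fell of 168, against 12.2% and 4.27% of 12887 probes (16.4% in either direction). With outlier spots kept, 13 rose and 2 fell of 176, against 7% and 3.6% of all probes. Within slide 1 the median difference was 0.83 for the ribosomal protein probes and -0.09 for all probes.

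**Figure D1:**
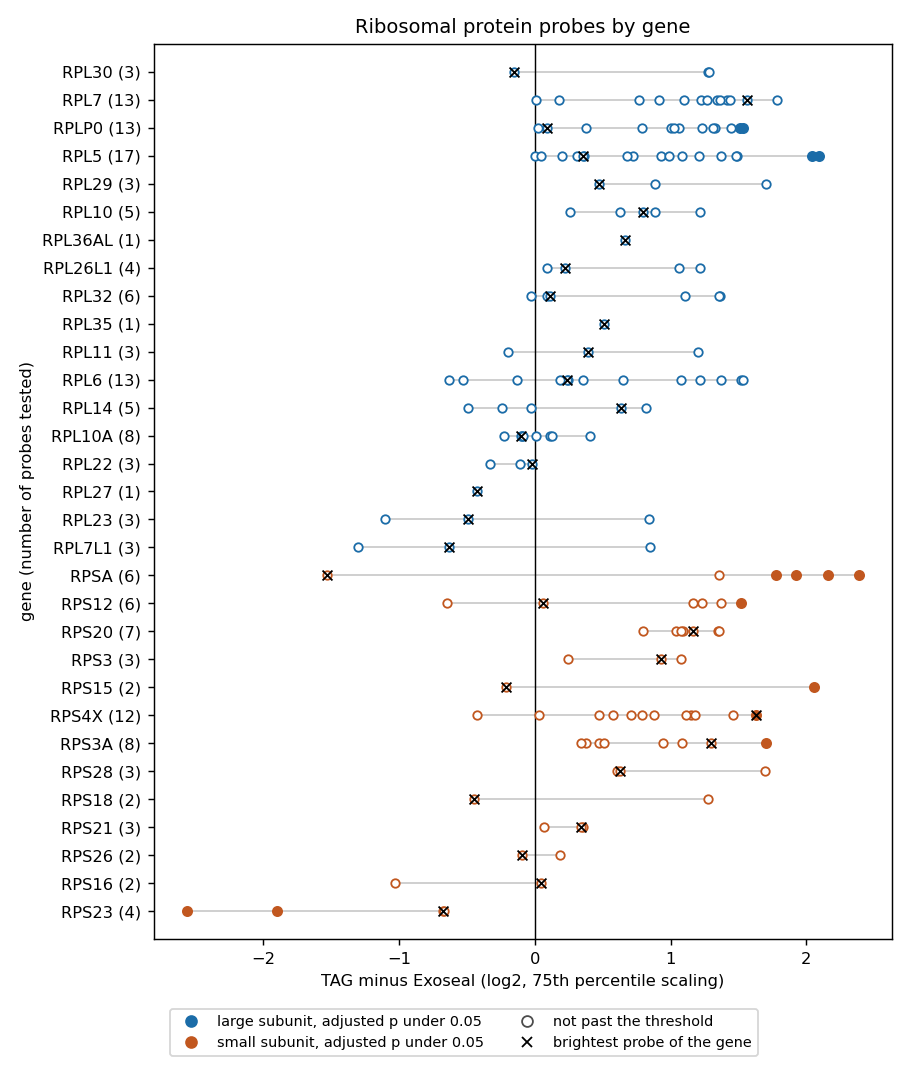
Each circle is 1 probe, placed on the x axis by its TAG minus Exoseal difference (log2, 75th percentile scaling), with 1 line per gene on the y axis for the genes reported here and the number of its probes tested in brackets; filled circles passed an adjusted p of 0.05 with limma and a cross marks the brightest probe of the gene. Most circles lie right of 0, yet probes of 1 gene spread widely, from -1.53 to 2.39 for RPSA.

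In the large subunit, 84 of 105 probes were above 0 with a median of 0.68. There 4 probes of 2 genes rose and 0 fell, where 7.06% of all probes rose and 3.69% fell. The genes with a called probe were RPL5 and RPLP0. RPL5 carries 5S ribosomal RNA into the large subunit together with RPL11, and the pair also binds the p53 regulator MDM2 when ribosome assembly is disturbed. All 17 tested RPL5 probes had differences above 0, from 0.00 to 2.09 with a median of 0.93, and 11 had groups that did not overlap. Probe A_72_P746797 had levels of 5.71, 6.17 and 6.22 on the TAG arrays and 4.43, 4.12 and 3.26 on the Exoseal arrays. Every TAG array was above every Exoseal array, and the probe rose by 2.09 ± 0.47 (SE), or 4.27-fold, with an adjusted p of 0.0313 in limma. With slide as a block it was 1.60 and not called (adjusted p = 0.0957). Its neighbour in size, A_72_P724008, read 5.75, 6.11 and 6.17 in TAG and 4.01, 4.33 and 3.55 in Exoseal. It rose by 2.04 ± 0.43 (SE), with an adjusted p of 0.0286, and was also called within slide 1, at 2.00. At the other end, A_72_P722383 read 2.70, 2.34 and 2.51 in TAG and 0.57, 4.05 and 2.91 in Exoseal. Its Exoseal arrays lay on both sides of TAG, so that a mean difference of 0.00 ± 0.78 (SE) hides a gap of -2.91 between Exoseal replicate 1 and the mean of replicates 2 and 3. The brightest RPL5 probe, A_72_P211462, differed by 0.36 and did not pass (adjusted p = 0.612). RPL11 had 3 probes with differences of -0.19, 0.40 and 1.20, none past the threshold.

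RPL7 is a protein of the large subunit that binds ribosomal RNA. All 13 tested RPL7 probes were above 0, from 0.01 to 1.78, and 11 had groups that did not overlap. Its 2 largest differences belonged to bright probes and did not pass. A_72_P602733 read 7.51, 7.90 and 7.82 in TAG and 5.03, 6.45 and 6.39 in Exoseal, a difference of 1.78 ± 0.50 (SE) with an adjusted p of 0.052. A_72_P146896, the brightest RPL7 probe, differed by 1.56 with an adjusted p of 0.0587. On both, Exoseal replicate 1 was the lowest array. Within slide 1 the 2 probes rose by 2.71 and 2.22 with adjusted p-values of 0.03 and 0.034, among 4 RPL7 probes called there. Under quantile scaling, which sets every array to one distribution, they differed by 0.97 and 0.71, with adjusted p-values of 0.248 and 0.329.

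RPL6 had 13 probes with the widest range of the large subunit, from -0.63 to 1.53, and none passed. The lowest, A_72_P756548, read -1.18, 1.58 and -0.66 in TAG and -1.42, 2.15 and 0.91 in Exoseal. Replicates within both groups differed there by more than the groups did, with a standard error of 0.97. The highest, A_72_P729518, read 2.70, 3.32 and 3.28 in TAG and 1.14, 2.04 and 1.53 in Exoseal, without overlap, for a difference of 1.53 ± 0.45 (SE) and an adjusted p of 0.0574. TAG replicate 2 was the highest TAG array on 11 of the 13 RPL6 probes.

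Besides RPL5, only RPLP0 had a called probe in the large subunit. RPL10, which joins late in assembly near the site of peptide bond formation, had 5 probes between 0.26 and 1.21, of which 4 had groups that did not overlap. RPL32 had 6 probes between -0.03 and 1.36, and RPL29 had 3 between 0.47 and 1.70. RPL30, a small RNA-binding protein, had 1 probe at -0.15 and 2 at 1.28. RPL10A forms the stalk at which empty tRNA leaves, and its 8 probes lay between -0.22 and 0.41, 4 above 0 and 4 below. Its TAG and Exoseal arrays overlapped on all 8 probes. Differences of RPL14 ran from -0.49 to 0.82 over 5 probes and those of RPL23, on the face that meets the small subunit, from -1.11 to 0.84 over 3. RPL35, beside the exit of the peptide tunnel, had 1 probe at 0.51. All probes were below 0 for RPL22 (3 probes, -0.33 to -0.02) and RPL27 (1 probe, -0.43), which did not pass.

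RPLP0 is the base of the P stalk, the flexible arm where elongation factors dock on the large subunit, and is also used as a reference gene. All 13 RPLP0 probes were above 0, between 0.03 and 1.53, with a median of 1.06, and 10 had groups that did not overlap. A_72_P728748 read 4.44, 4.56 and 4.59 in TAG and 3.09, 3.06 and 2.83 in Exoseal. Both groups were tight on this probe, with SDs of 0.08 and 0.14 (n = 3 each). It rose by 1.53 ± 0.40 (SE), or 2.89-fold, with an adjusted p of 0.0425. A_72_P726679 read 3.92, 4.46 and 4.11 in TAG and 2.87, 2.48 and 2.61 in Exoseal, and rose by 1.51 with an adjusted p of 0.0476. With slide as a block they differed by 1.44 and 1.30 and were not called (adjusted p of 0.108 and 0.15). The 2 brightest RPLP0 probes did not share this. A_72_P725423 read 7.55, 7.36 and 7.34 in TAG and 6.96, 6.93 and 8.10 in Exoseal, with Exoseal replicate 3 above every TAG array. Its difference was 0.09 ± 0.47 (SE), and that of A_72_P739196 was 0.03 ± 0.51 (SE). RPLP1, RPLP2, RPL4 and RPL13A were not analysed here.

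**Figure D2:**
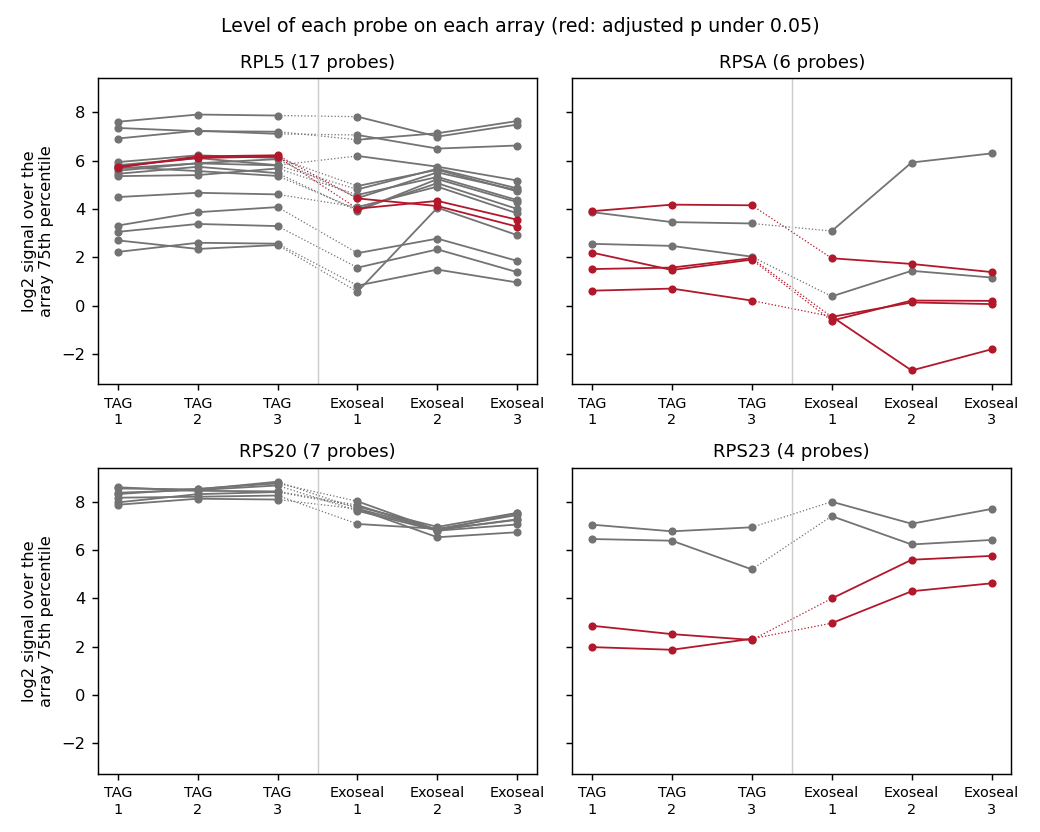
The y axis is the level of a probe (log2 signal over the array's 75th percentile) on each of the 6 arrays named on the x axis, with 1 line per probe of RPL5, RPSA, RPS20 and RPS23 and probes past an adjusted p of 0.05 in red; lines only join the points of a probe and arrays have no order. Most RPL5 lines run lower on all Exoseal arrays, whereas 1 RPSA probe is higher on Exoseal replicates 2 and 3 than in TAG while the other 5 are lower there, and all 4 RPS23 probes average lower in TAG.

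In the small subunit, 53 of 64 probes were above 0 with a median of 0.88. There 9 probes of 6 genes rose and 2 probes of 1 gene fell, against 7.06% and 3.69% of all probes. The order of the subunit medians depended on the setting. Under quantile scaling they were 0.11 for the small and 0.52 for the large subunit, and within slide 1 they were 0.59 and 0.90. The gene with the most calls was RPSA, a protein at the mRNA exit side of the small subunit that is also described as a laminin receptor precursor at the cell surface. Of its 6 probes, 5 had groups that did not overlap and 4 rose. A_72_P525469 read 3.90, 4.18 and 4.15 in TAG and 1.96, 1.72 and 1.39 in Exoseal. It rose by 2.39 ± 0.41 (SE), or 5.23-fold, and its adjusted p of 0.0229 was the smallest of all ribosomal protein probes. A_72_P570467 read 0.62, 0.70 and 0.21 in TAG and -0.45, -2.68 and -1.81 in Exoseal, a rise of 2.16 ± 0.59 (SE) with an adjusted p of 0.0475. This is a dim probe, and the Exoseal replicates differed from each other by as much as the groups did. With slide as a block the difference was 0.96 and not called (adjusted p = 0.307), as within slide 1 (adjusted p = 0.157).

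The other RPSA probes near the middle of the range behaved alike. A_72_P004351 read 2.19, 1.47 and 1.90 in TAG against -0.62, 0.21 and 0.20 in Exoseal and rose by 1.93, with an adjusted p of 0.0344. A_72_P635916 read 1.51, 1.57 and 1.96 against -0.47, 0.13 and 0.06 and rose by 1.77, with an adjusted p of 0.0346. On both, Exoseal replicate 1 was the lowest array. A_72_P039131 read 2.55, 2.47 and 2.02 against 0.38, 1.44 and 1.16, without overlap, and its difference of 1.36 did not pass (adjusted p = 0.0822). The brightest RPSA probe went the other way. A_72_P602883 read 3.86, 3.45 and 3.40 in TAG and 3.08, 5.92 and 6.29 in Exoseal. Exoseal replicate 1 lay just below the TAG arrays and replicates 2 and 3 far above them, so its difference of -1.53 ± 0.78 (SE) did not pass (adjusted p = 0.216) and was 0.49 within slide 1. Within slide 1, all 6 RPSA probes were above 0 (0.49 to 2.48) and 4 were called, A_72_P039131 among them and A_72_P570467 not.

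RPS23, a protein at the decoding centre of the small subunit, was the gene with calls in the other direction. A_72_P708370 read 2.86, 2.52 and 2.28 in TAG and 3.99, 5.59 and 5.75 in Exoseal. It fell by 2.56 ± 0.55 (SE) on the log2 scale, or 5.9-fold, with an adjusted p of 0.0296. A_72_P146691 read 1.98, 1.87 and 2.32 in TAG and 2.97, 4.29 and 4.62 in Exoseal, and it fell by 1.90 ± 0.52 (SE), or 3.74-fold, with an adjusted p of 0.0483. On both probes Exoseal replicate 1 stood between the TAG arrays and the other Exoseal arrays. The 2 bright RPS23 probes differed by -0.67 each and did not pass, with groups apart on A_72_P746088 and overlapping on A_72_P761452. Within slide 1 the 4 probes stayed below 0, between -1.44 and -0.91, with none past the threshold (adjusted p of 0.069 for A_72_P708370 and 0.169 for A_72_P146691), nor with slide as a block (adjusted p of 0.114 and 0.312).

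RPS15, a protein of the small subunit's head, had 1 called probe beside another that differed less. RPS15 probe A_72_P740872 read 0.06, 0.36 and -0.44 in TAG and -1.49, -2.77 and -1.93 in Exoseal, and rose by 2.06 ± 0.49 (SE) with an adjusted p of 0.0346. With slide as a block it differed by 1.48 and was not called (adjusted p = 0.124). The second RPS15 probe, A_72_P441728, read 5.87, 5.90 and 5.78 in TAG and 7.08, 4.95 and 6.16 in Exoseal. There the Exoseal arrays surrounded the TAG arrays, and the difference of -0.21 did not pass.

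RPS12, RPS4X and RPS3A each had 1 probe that rose. RPS12 probe A_72_P754416 read 7.61, 7.93 and 7.70 in TAG and 6.47, 5.90 and 6.30 in Exoseal, and rose by 1.52 ± 0.41 (SE) with an adjusted p of 0.0469. Another 3 RPS12 probes differed by 1.17 to 1.37 with groups apart, while A_72_P744124 read 5.73, 5.91 and 5.50 in TAG and 5.14, 6.47 and 7.48 in Exoseal, a difference of -0.65. RPS4X is encoded on the X chromosome in mammals. Its brightest probe, A_72_P633063, read 7.50, 7.43 and 7.19 in TAG and 6.11, 5.27 and 5.84 in Exoseal, and rose by 1.63 ± 0.43 (SE) with an adjusted p of 0.0437. The remaining 11 RPS4X probes ran from -0.43 to 1.46, and A_72_P644973 read 4.67, 4.65 and 3.53 in TAG against 2.03, 5.31 and 5.43 in Exoseal. RPS3A probe A_72_P569683 read 5.05, 5.45 and 5.30 in TAG and 4.0, 3.62 and 3.08 in Exoseal, and rose by 1.70 ± 0.43 (SE) with an adjusted p of 0.0414. All 8 RPS3A probes were above 0, from 0.34 upward, and 6 had groups that did not overlap. With slide as a block these 3 calls were lost, at 1.27 for RPS12 (adjusted p = 0.155), 1.26 for RPS4X (adjusted p = 0.163) and 1.27 for RPS3A (adjusted p = 0.161). Quantile scaling also ended those of RPS12, at 0.76 (adjusted p = 0.216), and RPS4X, at 1.03 (adjusted p = 0.131).

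RPS20 was the most even of the genes with many probes. Its 7 probes differed by 0.80 to 1.36, every TAG array lay above every Exoseal array on all 7, and none passed the threshold, with adjusted p-values from 0.0702 to 0.245. RPS3, which sits at the mRNA entry of the small subunit and also takes part in DNA repair, had 3 probes. A_72_P763607 read 7.66, 8.23 and 8.18 in TAG and 7.33, 6.58 and 7.38 in Exoseal, a difference of 0.93. A_72_P041136 read 4.39, 4.59 and 5.13 against 3.76, 3.86 and 3.26, a difference of 1.08. A_72_P765707 read 7.28, 7.27 and 7.34 against 7.04, 6.68 and 7.45, where the groups overlapped, and differed by 0.24.

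RPS18, often used as a reference gene, had 2 probes of opposite sign. A_72_P360788 read 5.20, 5.07 and 4.60 in TAG and 2.76, 4.27 and 4.02 in Exoseal, a difference of 1.27 ± 0.51 (SE) that did not pass (adjusted p = 0.127). A_72_P602863 read 5.74, 5.93 and 5.76 in TAG and 5.76, 6.51 and 6.49 in Exoseal, a difference of -0.44 ± 0.43 (SE). The first was called within slide 1, at 2.19 with an adjusted p of 0.035, where the second differed by 0.05. RPS6, the substrate of the S6 kinases, was not analysed here.

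Among the remaining small-subunit genes no probe passed. RPS21 had 3 probes between 0.07 and 0.36, the narrowest range of the genes with at least 3 probes, and RPS26, at the mRNA exit channel, had 2 at -0.09 and 0.19. RPS28 had 2 bright probes at 0.61 and 0.63 and 1 dimmer probe at 1.70 with groups apart (adjusted p = 0.0684). RPS16 probe A_72_P444554 was the one ribosomal protein probe that missed the well-above-background flag on all arrays of 1 group. It read -2.45, -2.08 and -2.20 in TAG, each only a bound, and -2.0, -1.10 and -0.53 in Exoseal. Set against the lowest signal that counted as well above background on each TAG array, it was at least 1.1-fold lower in TAG, and it did not pass (adjusted p = 0.184). The other RPS16 probe differed by 0.05.

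Relatives of ribosomal proteins that the naming rule brought in were RPL7L1, RPL26L1 and RPL36AL. RPL7L1 is an RPL7-like factor of large-subunit assembly and not a standard part of the finished ribosome. Of its 3 probes 2 were below 0, while the 13 of RPL7 were all above 0, and the genes were not tested against each other. A_72_P743674 read 1.35, 1.90 and 1.04 in TAG and 2.42, 3.19 and 2.59 in Exoseal, a difference of -1.30 ± 0.45 (SE) with an adjusted p of 0.0891. A_72_P210622 was also lower on every TAG array, by -0.64 on average, while A_72_P728658 read -0.72, -0.30 and -0.46 in TAG and -1.64, -0.52 and -1.85 in Exoseal, a difference of 0.85. RPL26L1, a close copy of RPL26, had 4 probes between 0.09 and 1.22, and RPL36AL, a close copy of RPL36A, had 1 at 0.66. None of these passed, and copies as close as these may share signal with their parent genes.

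Probes of 1 gene often disagreed by more than the error of a single probe. Among the 25 genes with at least 3 probes, the range of the differences over a gene's probes had a median of 1.39, from 0.29 for RPS21 to 3.91 for RPSA. The SD over the probes of a gene had a median of 0.60, against a median standard error of 0.44 for a probe, and lay below 0.44 for RPL10 (0.35), RPL10A (0.20), RPL22 (0.16), RPS20 (0.19) and RPS21 (0.16). All probes were above 0 in 14 of the 32 genes, all below in 3 (RPL22, RPL27 and RPS23), and of both signs in 15. The choice of probe therefore set the picture of a gene. Taking the brightest probe of each gene, 21 genes were above 0 and 11 below with a median of 0.23, and limma over 20857 features called 1 gene higher (RPS4X, adjusted p = 0.0452), where 6.59% of all features were called higher. Taking the mean of a gene's probes, 26 were above 0 and 6 below with a median of 0.67, and limma called 0, against 6.4% of all features higher and 3.55% lower (9.95% in either direction), although 7 had an unadjusted p under 0.05. RPS23 came nearest, with a mean of -1.45 ± 0.41 (SE) and an adjusted p of 0.055, followed by RPSA at 1.35 with an adjusted p of 0.0659.

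TAG replicates were closer to each other than Exoseal replicates. The SD over the 3 TAG arrays had a median of 0.19 over the ribosomal protein probes and that over the 3 Exoseal arrays one of 0.46. For all tested probes these medians were 0.35 and 0.72. The Exoseal SD was the larger for 148 of the 169 probes, against 77.6% of all probes. An Exoseal array was the lowest of the 6 for 151 probes, against 62.9% of all probes, with 56 of them lowest on replicate 1, 48 on replicate 2 and 47 on replicate 3. A TAG array was the highest for 115, against 40.5% of all probes.

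Since Exoseal replicate 1 has a conflicting label and shares the scan with TAG, TAG was also set against it and against the other 2 Exoseal arrays apart. The TAG mean lay above Exoseal replicate 1 for 140 probes, against 47.2% of all tested probes. It lay above the mean of replicates 2 and 3 for 130, against 55.3%. It lay above both for 111 (65.7%), against 34.6% of all tested probes, and below both for 10. For the other 48 (28.4%) it lay between them, against 33.2% of all tested probes. For 29 of these it was above replicate 1 alone and for 19 above the mean of replicates 2 and 3 alone. Replicate 1 stood at least 2 log2 units from the mean of replicates 2 and 3 on 8 probes, a limit chosen after the values were seen. It was the lower one on all 8, which belonged to RPL6 (3 probes), RPL5, RPL14, RPL23, RPS4X and RPSA. The largest gap among the 8 was -3.34, on RPS4X probe A_72_P644973. Counted as TAG, as its treatment field says, replicate 1 left 8 probes higher and 4 lower (4.73% and 2.37%), against 11.3% and 5.36% of all probes (16.7% in either direction), with a median difference of 0.56.

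**Figure D3:**
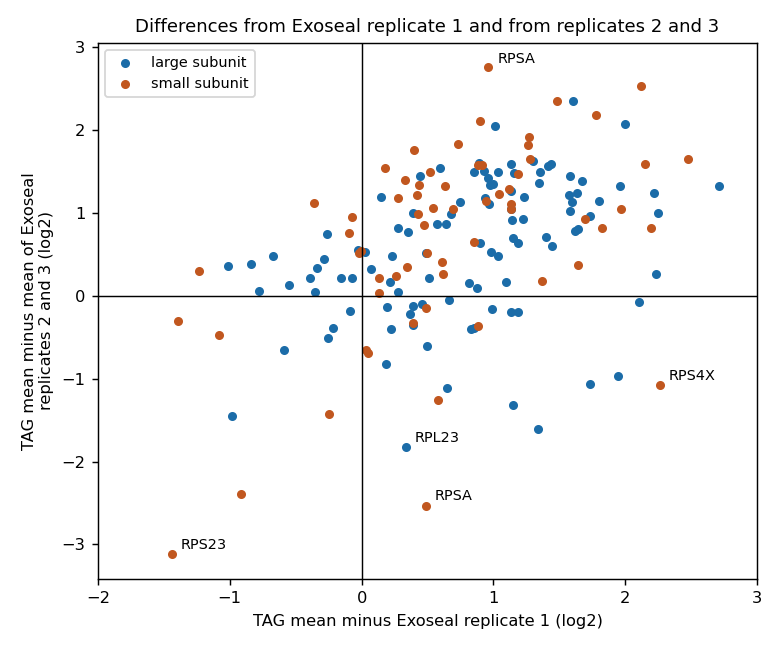
Each point is 1 ribosomal protein probe, with the TAG mean minus Exoseal replicate 1 on the x axis and the TAG mean minus the mean of Exoseal replicates 2 and 3 on the y axis (both log2, 75th percentile scaling). The upper right field, where TAG is above both, holds 111 of the 169 probes, against 34.6% of all tested probes. The lower left holds 10, and the other fields hold 48, against 33.2% of all tested probes.

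The size and, for part of the probes, the sign of the difference moved with the scaling between arrays. Under quantile scaling, which gives all arrays the same distribution, the median over the ribosomal protein probes was 0.37 and that over all probes -0.05. Of the 169 probes, 33 turned from above to below 0 and 0 turned the other way, and 8.30% of all tested probes changed sign. Limma then called 21 higher and 3 lower (12.4% and 1.78%), against 7.17% and 6.7% of all probes, and 13 of the 15 stayed called. The deposited value table of the authors gave nearly the same picture, with a median of 0.36, and 23 probes higher and 3 lower (13.6% and 1.78%), against 7.49% and 5.35% of all probes. Its maximum was 15.57 on every array, as under quantile scaling, so it was not taken as a separate check. With arrays scaled on their median, all probes shifted down to a median of -0.39 and the ribosomal protein probes to 0.33. That turned 35 of the 169 from above to below 0, and 15.4% of all tested probes changed sign. Limma called 0 of the 169 there, with 13 higher and 5 lower at an unadjusted p under 0.05, and 2.17% of all probes called higher. With the 75th percentile taken over the 12887 probes detected on all arrays, medians were 0.92 and 0.21, and 17 were called higher and 1 lower, against 6.98% and 2.64% of all probes (9.61% in either direction).

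Other treatments of the signal changed the balance of calls. Without any scaling the median was -0.92 against -1.63 for all probes, and 0 probes were called higher and 33 lower, against 1.05% and 47.1% of all probes. There 9 of the 169 probes were above 0 and 160 below, against 11.2% of all tested probes above 0. Compared with the 75th percentile scale, 128 turned from above to below 0, and 41.4% of all tested probes changed sign. With normexp background correction and quantile scaling the median was 0.26, and 29 were called higher and 9 lower (17.2% and 5.33%), against 4.54% and 2.54% of all probes (7.07% in either direction). With normexp and the 75th percentile it was -0.061 against 0.18 for all probes, and 1 was called higher and 6 lower, against 0.744% and 3.94% (4.69% in either direction). That was the one setting in which the ribosomal protein probes had a lower median than all probes. Of the 169 probes, 61 changed sign there, against 25.2% of all tested probes.

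**Figure D4:**
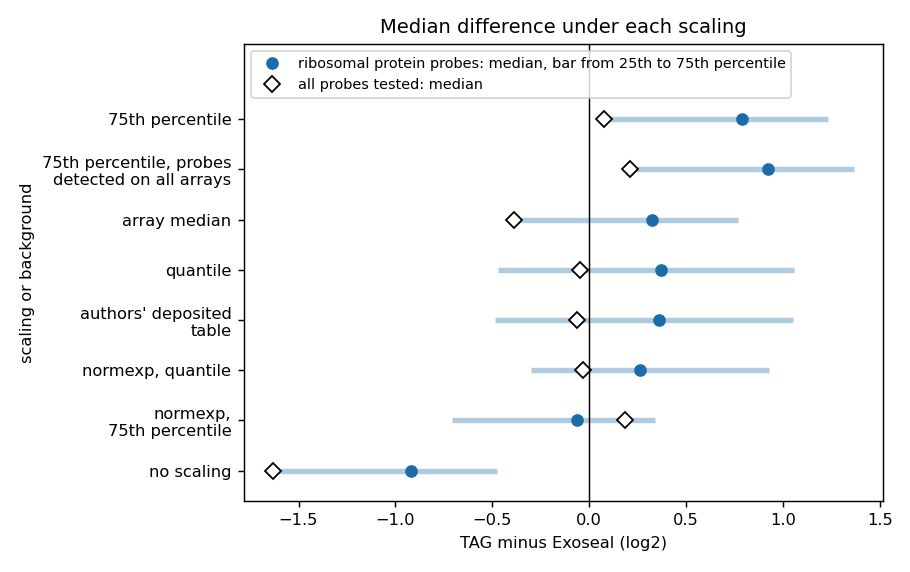
Filled points give the median TAG minus Exoseal difference (x axis, log2) of the 169 ribosomal protein probes under each scaling or background correction on the y axis, with bars from the 25th to the 75th percentile of probes, and open diamonds the median of all tested probes. The ribosomal protein median lies right of the diamond in all settings but normexp with the 75th percentile, and left of 0 in that one and without scaling.

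The effect of quantile scaling was greatest on the brightest probes. The 21 ribosomal protein probes with a mean level of 7 or more, a limit chosen after the values were seen, had a median difference of 0.73 on the 75th percentile scale, with 1 below 0. Under quantile scaling their median was -0.68, with 18 below 0. The other 148 went from 0.79 to 0.53. All 241 tested probes of that brightness went from 1.38 to 0.07. RPS20 shows this within a gene, since its 7 probes moved from between 0.80 and 1.36 to between -0.47 and 0.11. By contrast, the called RPSA probes lay between 1.89 and 2.45 under quantile scaling and the 4 RPS23 probes between -2.64 and -1.30, of which 3 were called. With the brightest probe standing for each gene, 9 genes were above 0 and 23 below on this scale, with a median of -0.58. Across the 169 probes, level and difference had a Pearson correlation of -0.09 and a Spearman correlation of -0.16 on the 75th percentile scale, and of -0.47 and -0.55 on the quantile scale. The probes share arrays and, within a gene, an annotated transcript, so these are descriptions.

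**Figure D5:**
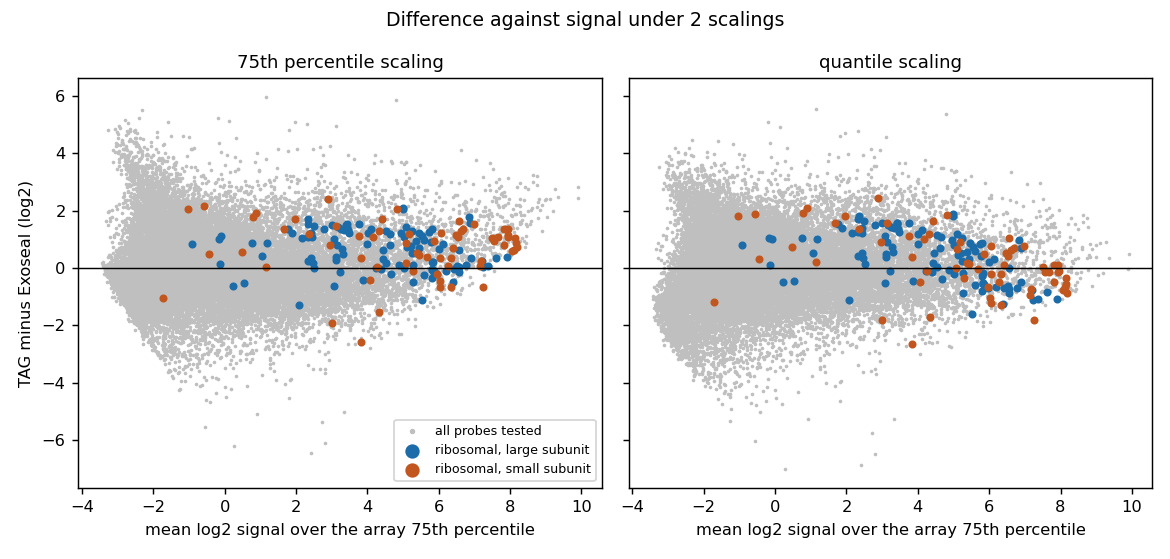
Each point is 1 tested probe, with its mean level over the 6 arrays (log2 signal over the array's 75th percentile) on the x axis and its TAG minus Exoseal difference (log2) on the y axis, under 75th percentile scaling on the left and quantile scaling on the right; ribosomal protein probes are coloured by subunit. At levels of 7 or more the ribosomal protein points have a median of 0.73 on the left and -0.68 on the right.

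Other parts of the translation machinery were thinly covered by named probes, and each gene stands here by its brightest probe. Of 5 tested genes listed for initiation, EIF4A1, the RNA helicase that unwinds the start of mRNAs, rose and the other 4 did not pass. That list includes EIF2AK2, a kinase of an initiation factor and not itself such a factor. EIF4A1 read 8.49, 8.17 and 8.23 in TAG and 5.93, 5.13 and 6.86 in Exoseal, a rise of 2.32 ± 0.52 (SE) with an adjusted p of 0.031 that became 1.54 with an adjusted p of 0.07 under quantile scaling. The difference was 0.75 for its relative EIF4A2 and -0.25 for EIF4A3, which belongs to the exon junction complex. The one elongation factor measured was EEF1A1, which brings tRNA to the ribosome and whose mRNA carries the same pyrimidine tract. It read 8.27, 8.69 and 8.22 in TAG and 6.97, 7.33 and 7.75 in Exoseal, a difference of 1.04 that did not pass and was -0.49 under quantile scaling.

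Among 6 mRNAs that carry that tract or encode ribosome-linked proteins, EEF1A1 among them, 0 passed with limma and 6 were above 0, with a median of 0.77. The 2 with the smallest p were HNRNPA1 at 1.23 and EEF1A1. RACK1, a scaffold on the small subunit, differed by 0.59. Of 4 genes of ribosome biogenesis 0 passed, with 2 above and 2 below 0. The smallest p there belonged to DKC1, of the enzyme that modifies ribosomal RNA, which missed that flag on all TAG arrays, and to NIP7 at -1.31. Of 2 tested mitochondrial ribosomal proteins 0 passed, with MRPL2 at 1.73 and MRPL52 at -0.23. Of 6 reference genes 0 passed, and HPRT1 at -1.78 came nearest (adjusted p = 0.0517). No probe of the S6 kinases or of mTORC1 was matched by name.

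Some markers of smooth muscle, macrophages, endothelium and skeletal muscle differed between the groups, and their part in the ribosomal protein differences was not tested. Smooth muscle markers, which define the artery wall, were well measured: of 5 tested, ACTA2 rose by 2.22 and DES by 1.52, and 0 fell. DES differed by 0.75 under quantile scaling and was not called there (adjusted p = 0.21), and MYLK was at -1.37 without passing. The summed level of the 5, as multiples of the 75th percentile, was 464 to 551 on the TAG arrays and 251 to 283 on the Exoseal arrays. CNN1 and DES made up most of that sum. CNN1 differed by 0.73 without passing, and by -0.37 under quantile scaling. On the 75th percentile scale, the brightest 2% of all tested probes had a median difference of 1.06. Of 8 macrophage and monocyte markers 3 fell (LYZ, AIF1 and CD86) and 0 rose, with a summed level of 16.2 to 23.9 in TAG and 46.7 to 86.1 in Exoseal. In Exoseal that sum came mostly from LYZ and AIF1. C1QA (0.68), CD14 (0.23) and CD163 (0.10) were above 0 without passing. Of 4 endothelial markers CDH5 fell, with a summed level of 6.74 to 10.9 in TAG and 16.2 to 53.8 in Exoseal. CDH5 itself made up most of the Exoseal sum, and ENG was at 0.84 without passing. Of 14 skeletal muscle markers ACTA1 rose and the other 13 did not pass. Their median was 0.03 with 7 above 0, and -0.40 within slide 1, and MYH2, MYH4, MYH7, TNNT3 and TNNC2 were among those below 0. Their summed level was 72.5 to 99.4 in TAG, mostly from ACTA1 itself, and 29.8 to 65.5 in Exoseal. None passed of 4 fat cell markers (82.5 to 94.3 in TAG, 83.3 to 125 in Exoseal), of 2 lymphocyte markers (0.971 to 1.12 and 0.537 to 1.17) or of 4 markers of dividing cells (16.9 to 23.5 and 26.1 to 52.6). No red blood cell marker was matched by name.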

How the data were processed

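Cy3-labelled RNA amplified from each sample was hybridised to 1 array, per the labels' protocols. Per the file headers, the authors' scanner output gives an intensity for each spot, read with version 11.0.1.1 of Agilent Feature Extraction, which the submitters' processing notes also name. The processed signal used here is background-subtracted and detrended within each array and not scaled between arrays. The deposited table of the authors' values is on a log2 scale, judged from its values. All 6 column medians were 3.40, and its Spearman correlation with each array's own scanner signal was 0.941 to 0.995. It is not centred per gene, and the method of its scaling is not stated. Its maximum was 15.57 on all 6 arrays, the same as under quantile scaling here. The genome build behind the probes was not given in the sources used here, and coordinates were left out.

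Outlier spots were dropped, spots averaged per probe on the log2 scale and each array's 75th percentile subtracted; 223 of 43603 probes had no value. Probes were named through RefSeq accessions matched to a table of pig genes (Sscrofa11.1, names only), which named 5435 probes. Probes well above background on at least 3 of 6 arrays were tested probe by probe, TAG minus Exoseal, two-sided, with limma 3.58.1 in R 4.3.3 (lmFit, eBayes), after the procedure had been tested on simulated data. Errors of levels are SDs over 3 arrays and errors of differences standard errors from limma. The number of arrays limits the precision. Where a probe missed the well-above-background flag on every array of 1 group, a lower bound of the fold was taken from the other group's mean and a floor, per dim array the higher of the lowest flagged signal and the probe's own.

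Values on each array are given for up to 12 called probes per direction with groups that do not overlap, for named genes of known role or use as reference (RPLP0, RPS18, RPS3, RPSA), for both ends of the 6 genes whose probes differ most, and for the probe not above background in 1 group, beside some probes added after their values were seen. From other lists (initiation, elongation, tract-bearing mRNAs, biogenesis, S6 kinases and mTORC1, mitochondrial ribosome, reference genes, cell type markers) up to 4 called genes or else the 2 with the smallest p are named, with others chosen for their role. The members and lists were chosen with earlier results of these data known. Alternatives covered scaling, background correction, filter, slide, replicate number, single arrays, the label of Exoseal replicate 1, probes per gene and the test. For normexp (offset 50) the median spot signal was used in place of the mean. Sample descriptions naming another kind of experiment were not used. Some genes' own values are not reported here, though the counts and medians include them.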

Additional observations from a re-analysis of the deposited data

How the results depend on the processing

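The number of ribosomal protein probes past the threshold, 15, was 24 with quantile scaling, 26 with the authors' deposited table, 33 with no scaling, 38 with normexp and quantile scaling, 7 with normexp and the 75th percentile, 38 when probes had to be well above background on all 6 arrays and 37 with a trended, robust eBayes (35 higher and 2 lower, against 8.14% and 4.38% of all probes, 12.5% in either direction). It was 0 of 169 with median scaling and with no filter (18 and 59 at an unadjusted p under 0.05 in limma). Per gene it was 1 by the brightest probe and 0 by the mean of probes. With the replicate number as a block it was 0, and 0 of all probes, against 55 ribosomal protein probes at an unadjusted p under 0.05; deviations of same-numbered arrays correlated at -0.18, 0.09 and -0.07, so the numbers were not taken to pair the arrays. Leaving out 1 array gave 0 to 56, and 0 to 7715 of all probes. The number of all probes past the threshold, 2443, was 1049 with median scaling, 10943 with no scaling, 1607 with normexp and quantile scaling, 1065 with normexp and the 75th percentile, 0 with no filter (32.6% at an unadjusted p under 0.05) and 3788 with Exoseal replicate 1 counted as TAG.

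The median difference of the ribosomal protein probes, 0.79, was 0.37 with quantile scaling, 0.33 with median scaling, 0.26 with normexp and quantile scaling, 0.36 with the authors' deposited table, 0.56 with Exoseal replicate 1 counted as TAG and 0.23 by the brightest probe. It reversed to -0.92 with no scaling and to -0.061 with normexp and the 75th percentile. Of the called probes, 5 reversed with no scaling: RPLP0 A_72_P728748 (-0.17) and A_72_P726679 (-0.20), RPS12 A_72_P754416 (-0.19), RPS3A A_72_P569683 (-0.0074) and RPS4X A_72_P633063 (-0.075). No scaling shifts every probe by the same amount, and the other causes were not tested. Alternatives chosen after seeing the data were quantile scaling within slide 1, with 7 calls (6 higher and 1 lower, against 4.27% and 2.59% of all probes, 6.87% in either direction) and a median of 0.45, and quantile scaling without Exoseal replicate 1, with 52 calls (38 higher and 14 lower, against 14% and 13.5%, 27.5% in either direction) and a median of 0.30.

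Of the 15 called probes, 13 stayed called with quantile scaling and with the 75th percentile of probes detected on all arrays, 10 with normexp and quantile scaling, 6 with Exoseal replicate 1 counted as TAG and 4 with slide as a block. Scaling on spike-in controls was not run, because those probes were not well above background on every array. Signal over background limits RPS16 most, and a few dim RPSA and RPS15 probes.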
